A study of Homo sapiens with 12 samples.

Results

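The YAP/TAZ effectors and direct targets are a set of 10 genes chosen by name, out of 19973 genes listed for H460 and A549 cells. The genes were chosen with earlier results of these data known. They are the coactivators YAP1 and WWTR1 (the gene of TAZ), the DNA-binding partners TEAD1 and TEAD4, and the targets CCN1, CCN2, ANKRD1, AMOTL2, AJUBA and LATS2. All 10 were found under these symbols, and all 10 passed the filter on low values in each comparison. RNA was sequenced from H460, a large cell lung carcinoma line, and A549, a lung adenocarcinoma line, both classed as non-small cell lung cancer (NSCLC). Both carry the genotype label WT, while the study describes each line as homozygous for inactivating mutation of KEAP1. Cells were non-treated (control) or received ISP-I (isovalerylspiramycin I, a macrolide) at 10 µM for 48 h, with 3 libraries in each of the 4 groups and 12 libraries in all. Nothing in the labels ties a library to a separate culture, so p values measure the spread between these libraries, which may in part be technical.

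YAP and TAZ are transcriptional coactivators that bind no DNA themselves and act on promoters and enhancers through the TEAD proteins. The Hippo pathway holds them back: the kinases LATS1 and LATS2 phosphorylate YAP and TAZ, which keeps them in the cytoplasm and marks them for degradation. Some targets feed back on the pathway, since LATS2 is the kinase itself, AMOTL2 is an angiomotin that retains YAP at junctions, and AJUBA is a LIM protein that binds LATS kinases and restrains them. CCN1 (also CYR61) and CCN2 (also CTGF) are secreted matricellular proteins, and ANKRD1 is an ankyrin repeat protein of muscle and stressed cells. In lung carcinoma lines these transcripts are widely used as a readout of YAP/TAZ activity, although each also answers to other transcription factors. RNA levels do not show the phosphorylation or the location of YAP and TAZ, and neither was measured in these libraries.

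Levels are given as FPKM, reads per gene after division by gene length and library depth, so that levels of different genes can be compared. A difference between groups is given as a log2 fold change of (FPKM + 1) with its standard error (SE), from limma with Benjamini-Hochberg adjustment over all genes whose mean reached 0.1 FPKM. A gene is said to rise or fall where the adjusted p was under 0.05, and is called where the fold change on that scale was also over 2. Libraries held 14225849 to 17874422 reads on genes, and chi-square per degree of freedom between libraries within a group was 3.03 to 98.7, widest for ISP-I libraries 2 and 3 of H460. Over all genes the median log2 fold change in H460 was -0.15, and with a filter at 1 FPKM it was -0.22. Scaling by median-of-ratios, which sets the typical gene equal between libraries, moved the former by 0.15. It moved each of the 10 genes further up in H460, for example YAP1 from 1.07 to 1.34, WWTR1 from -0.49 to -0.23 and TEAD4 from -0.51 to -0.24. Its factors were 1.01 to 1.04 in H460 controls and 0.84 to 0.85 in treated H460. Values given relative to the median in H460 thus remove only part of this offset. Of 6 epithelial markers, 4 had a mean of 1 FPKM or more in H460 and 5 or 6 in A549. CDH1 was at 0 in every H460 control library, and the 6 together summed to 357.8 to 432.3 FPKM (H460 controls), 328.6 to 419.6 (treated H460), 1436 to 1826 (A549 controls) and 1252 to 1266 (treated A549). Marker sums stayed at or under 0.368 FPKM for endothelial cells and 1.6 for fibroblasts. The leukocyte sum was 5.18 to 6.48 in H460 controls and at most 1.66 in the other groups. Of the 4 leukocyte markers, only CD14 passed the filter on low values. PTPRC was at 0 in every H460 control library, and CD3E in every library. In bulk RNA, fewer cells of a type and less RNA per cell cannot be told apart. The part of these markers in the results was not tested.

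The 10 genes lie on 8 chromosomes of hg38: YAP1 at chr11:102110447-102233424 and TEAD1 at chr11:12674421-12944737 on the plus strand, TEAD4 at chr12:2959330-3040676 and CCN1 at chr1:85580761-85584589 also on the plus strand, and WWTR1 at chr3:149517235-149736714, AMOTL2 at chr3:134355347-134375479, CCN2 at chr6:131948176-131951372, ANKRD1 at chr10:90912096-90921087, AJUBA at chr14:22971177-22982551 and LATS2 at chr13:20973036-21061586 on the minus strand. The strand setting of the counting is not given in the sources used here. In GENCODE v44, exons of opposite-strand genes cover 628 of the 6311 exon bases of YAP1 and 756 of the 8353 of WWTR1 (WWTR1-AS1). The opposite-strand LINC01013 covers 278 of the 2338 of CCN2. Without the strand setting, reads of these partners cannot be told apart here from those of the genes themselves. On the same strand, RPL39P5 covers 187 of the 6479 exon bases of AMOTL2, and a protein-coding gene 50 of the 5885 of AJUBA. No strand setting would separate reads in these shared bases.

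The promoters of CCN2 and ANKRD1 are shown because TEAD-bound promoters link the effectors to the targets, and these are the windows with more than 1 TEAD motif among the 7 genes that have one. Each run is the 250 bases before the RefSeq transcription start (GRCh38.p14), written from 5′ to 3′ on the gene's strand, with motif matches in capitals. CCN2 lies at chr6:131951373-131951622 and ANKRD1 at chr10:90921088-90921337, both on the minus strand, and YAP1 at chr11:102110197-102110446 on the plus strand is added as an effector with a match of its own.
CCN2: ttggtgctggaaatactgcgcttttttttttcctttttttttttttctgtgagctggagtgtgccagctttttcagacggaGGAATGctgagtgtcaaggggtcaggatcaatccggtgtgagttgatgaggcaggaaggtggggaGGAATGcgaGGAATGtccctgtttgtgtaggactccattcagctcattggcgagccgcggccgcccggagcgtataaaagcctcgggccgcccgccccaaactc
ANKRD1: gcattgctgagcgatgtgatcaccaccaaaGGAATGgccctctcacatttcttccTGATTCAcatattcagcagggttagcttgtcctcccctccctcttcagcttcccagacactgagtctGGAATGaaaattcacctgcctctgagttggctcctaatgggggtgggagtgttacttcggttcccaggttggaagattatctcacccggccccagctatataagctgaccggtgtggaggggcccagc
YAP1: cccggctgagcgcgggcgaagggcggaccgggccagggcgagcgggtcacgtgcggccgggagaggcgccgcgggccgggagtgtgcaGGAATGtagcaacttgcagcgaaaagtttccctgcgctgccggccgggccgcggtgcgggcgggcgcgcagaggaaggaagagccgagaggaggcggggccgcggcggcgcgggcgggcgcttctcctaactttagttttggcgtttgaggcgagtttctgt
The TEAD motif searched was GGAATG on both strands, the AP-1 motif was TGANTCA, and the CArG box of SRF was searched by its usual pattern, in windows from 250 bases before to 50 after each start. No match overlapped another. CCN2 held 3 TEAD matches, beginning -169, -104 and -95 bases from the start, and ANKRD1 held 2, at -220 and -128, with an AP-1 match between them at -195. YAP1 held a TEAD match at -162, AMOTL2 at -69 and AJUBA at -59 before the second of their listed starts, and LATS2 at 10 bases past the start. WWTR1 held none in either of its windows. RefSeq windows were given for 7 of the 10 genes (not for CCN1, TEAD1 or TEAD4), and 6 of these 7 held a TEAD match in at least 1 window. Of all 34943 promoter windows, 14.0% held the TEAD motif, 7.72% the AP-1 motif and 1.3% the CArG box, which no window of the 7 genes held. These shares are per window, whereas 6 of 7 is per gene, so they are not directly comparable. AMOTL2, WWTR1 and AJUBA had more than 1 window. A match is a string of letters and was not tested as a binding site.

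**Figure D1:**
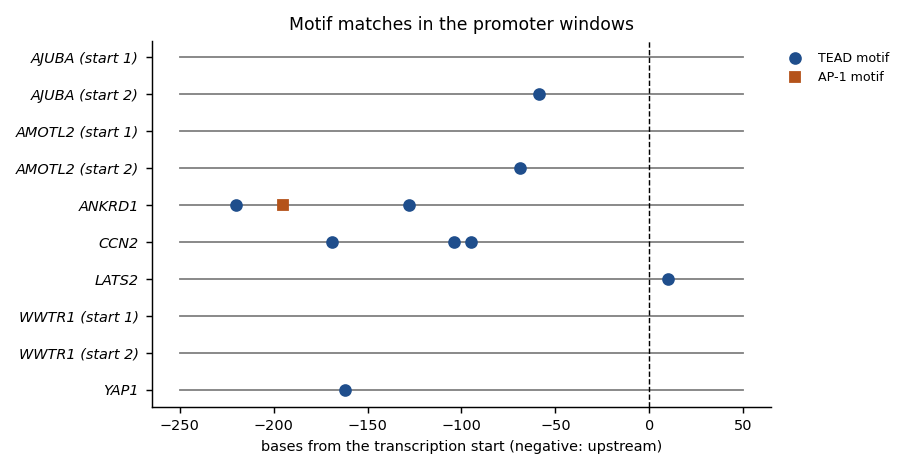
Positions of TEAD and AP-1 motif matches (points, at the first base of the match) in the 10 promoter windows of 7 genes, in bases from the transcription start. CCN2 carries 3 TEAD matches and ANKRD1 carries 2 with an AP-1 match between them, while both WWTR1 windows are empty.

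To find how the pathway's transcripts stood after ISP-I, treated and control libraries were compared within each line. In H460, 7 of the 10 genes rose and 2 fell, and 6 were called higher (ANKRD1, LATS2, CCN1, AMOTL2, YAP1 and CCN2) and 0 lower. Over all 13423 genes tested in H460, 10.5% were called higher and 15.2% lower, and 27.6% rose and 41.5% fell at any fold change. In A549, 7 of the 10 again rose and 2 fell, and 2 were called higher (ANKRD1 and CCN1) and 0 lower. Over all 13705 genes tested in A549, 4.20% were called higher and 3.51% lower, and 30.5% rose and 27.0% fell at any fold change. The genes that rose were YAP1 and all 6 targets in each line, and those that fell were WWTR1 and TEAD4. The median log2 fold change of the 10 genes was 1.05 in H460, against -0.15 for all genes, and 0.65 in A549, against 0.02. Without any 1 library, 6 or 7 of the 10 genes were called higher in H460 and 2 in A549.

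**Figure D2:**
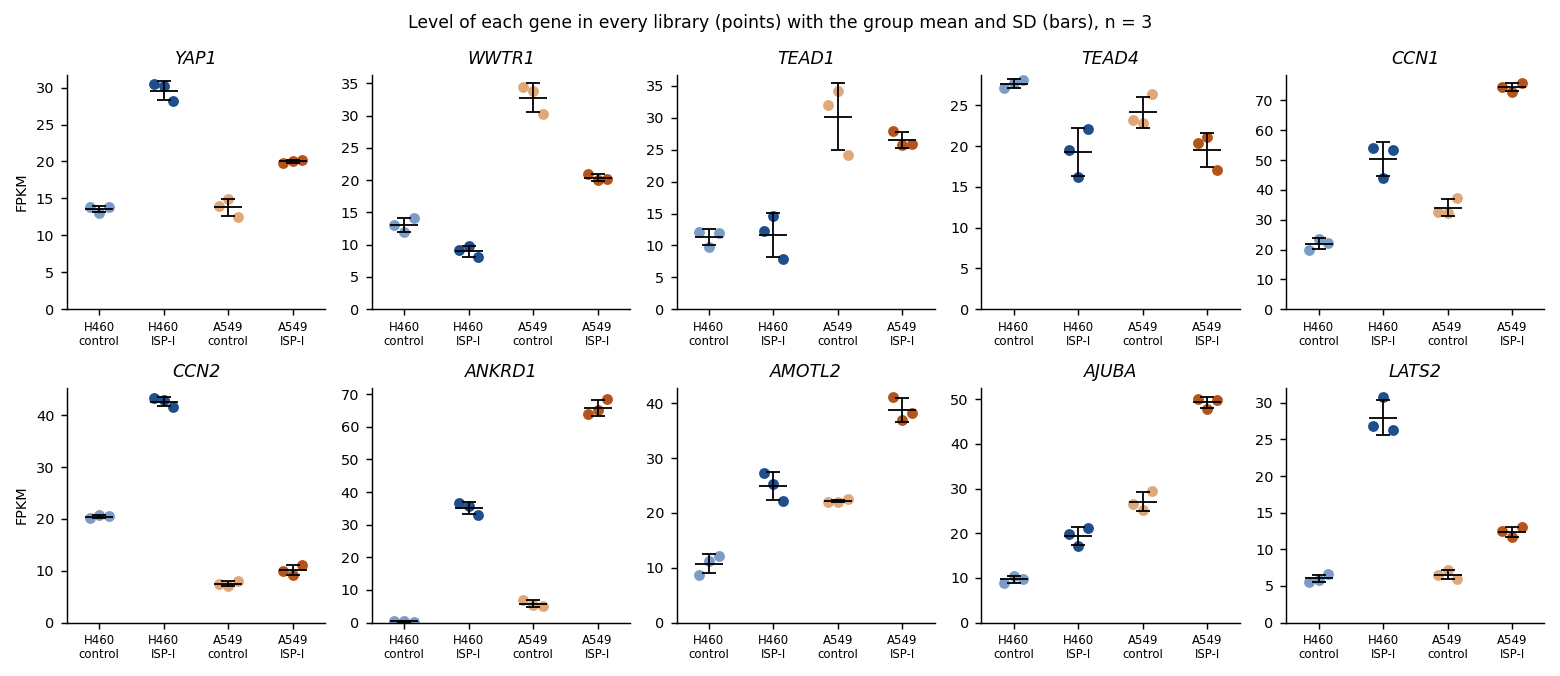
FPKM of each of the 10 genes in the 4 groups (linear axes from 0, each with its own scale); points are the 3 libraries of a group and bars the mean and SD. Treated and control libraries of a line overlap for TEAD1 and are separate for the other genes shown. The share of all genes with separate groups was not computed.

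The coactivators moved apart. YAP1 was at 13.8, 13.1 and 13.9 FPKM in H460 controls and 30.4, 30.2 and 28.1 with ISP-I, and at 14.0, 14.9 and 12.49 in A549 controls and 19.8, 20.1 and 20.2 with ISP-I. Every treated library lay above every control of its line. The YAP1 mean rose 2.18-fold in H460 (log2 fold change 1.07, SE 0.10, adjusted p 3.03e-05; 1.22 relative to the median of all genes) and 1.45-fold in A549 (0.51, SE 0.08, adjusted p 0.000639). WWTR1 was at 13.0, 11.9 and 14.2 FPKM in H460 controls and 9.10, 9.80 and 8.09 with ISP-I, and at 34.3, 33.7 and 30.2 in A549 controls and 21.0, 19.96 and 20.2 with ISP-I. The groups did not overlap in either line, and here the treated libraries were the lower ones. The WWTR1 mean fell to 0.622 of control in A549 (-0.66, SE 0.07, adjusted p 0.000116) and to 0.69 of control in H460 (-0.49, SE 0.12, adjusted p 0.00610). The fall in H460 was -0.34 relative to the median of all genes, and its adjusted p was 0.118 under median-of-ratios scaling and 0.114 with voom, a limma fit to the reads recovered from FPKM.

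YAP1 made up a larger share of the coactivator RNA after ISP-I. Of the summed FPKM of YAP1 and WWTR1, YAP1 held 51.4%, 52.4% and 49.4% in H460 controls and 77.0%, 75.5% and 77.7% with ISP-I, and 28.9%, 30.6% and 29.3% in A549 controls and 48.6%, 50.2% and 49.98% with ISP-I. The mean share was 25.6 percentage points higher with ISP-I in H460 and 19.98 points higher in A549 (two-sided exact permutation p 0.1 in each, the smallest that 3 against 3 libraries can give). Both shares are ratios within a library and do not depend on the scaling between libraries. The sum itself was 26.6 ± 1.54 FPKM in H460 controls and 38.6 ± 2.06 with ISP-I, and 46.5 ± 3.34 and 40.4 ± 0.332 in A549 (mean ± SD, n = 3; exact permutation p 0.1 in each).

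Of the TEAD partners, TEAD4 fell in each line, and TEAD1 passed in neither. TEAD1 was at 12.2, 9.83 and 11.9 FPKM in H460 controls and 12.3, 14.7 and 7.88 with ISP-I, and at 32.0, 34.2 and 24.2 in A549 controls and 27.9, 25.7 and 26.0 with ISP-I. Treated and control libraries overlapped in both lines, and the treated H460 libraries 2 and 3 were its highest and lowest. The log2 fold change was 0.00 (SE 0.20, adjusted p 0.987; 0.15 relative to the median, 0.26 under median-of-ratios scaling and 0.29 with voom) in H460 and -0.16 (SE 0.12, adjusted p 0.276) in A549. Without A549 control library 3, the lowest control, TEAD1 was lower in A549 by -0.31 with an adjusted p of 0.000554. TEAD4 was at 27.2, 27.7 and 28.2 FPKM in H460 controls and 19.5, 16.2 and 22.2 with ISP-I, and at 23.2, 22.9 and 26.4 in A549 controls and 20.4, 21.1 and 17.1 with ISP-I. All treated libraries were below the controls of their line. TEAD4 fell by 0.51 on the log2 scale in H460 (SE 0.13, adjusted p 0.00799; -0.36 relative to the median), with an adjusted p of 0.149 under median-of-ratios scaling and 0.154 with voom. It fell by 0.30 in A549 (SE 0.10, adjusted p 0.0277), with an adjusted p of 0.0541 without A549 ISP-I library 1 and 0.104 without library 3.

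Among the family, the TEAD that fell most was TEAD2, which is no member. It was at 6.27, 7.93 and 9.55 FPKM in H460 controls and 0.469, 0.282 and 0.452 with ISP-I (log2 fold change -2.66, adjusted p 1.81e-06), and at 7.74, 8.04 and 9.48 in A549 controls and 1.78, 1.88 and 1.64 with ISP-I (-1.76, adjusted p 3.22e-06). TEAD3 was at 1.79 to 3.69 FPKM over all 12 libraries, with -0.51 in H460 (adjusted p 0.00392, and 0.0502 under median-of-ratios scaling) and 0.15 in A549 (adjusted p 0.216). The summed FPKM of TEAD1 to TEAD4 was 50.3 ± 2.12 in H460 controls and 33.4 ± 1.17 with ISP-I, and 64.8 ± 2.25 and 50.2 ± 2.56 in A549, with no overlap between groups (exact permutation p 0.1 in each). TEAD4 held 55.0% of that sum in H460 controls and 57.8% with ISP-I, and TEAD1 held 22.4% and 34.7%, with libraries 2 and 3 of the treated group at 44.2% and 24.3%. In A549 the TEAD1 share was 46.4% in controls and 52.9% with ISP-I, and the TEAD4 share 37.4% and 38.8%. For these TEAD1 and TEAD4 shares the exact permutation p was 0.2 or above in each line.

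**Figure D3:**
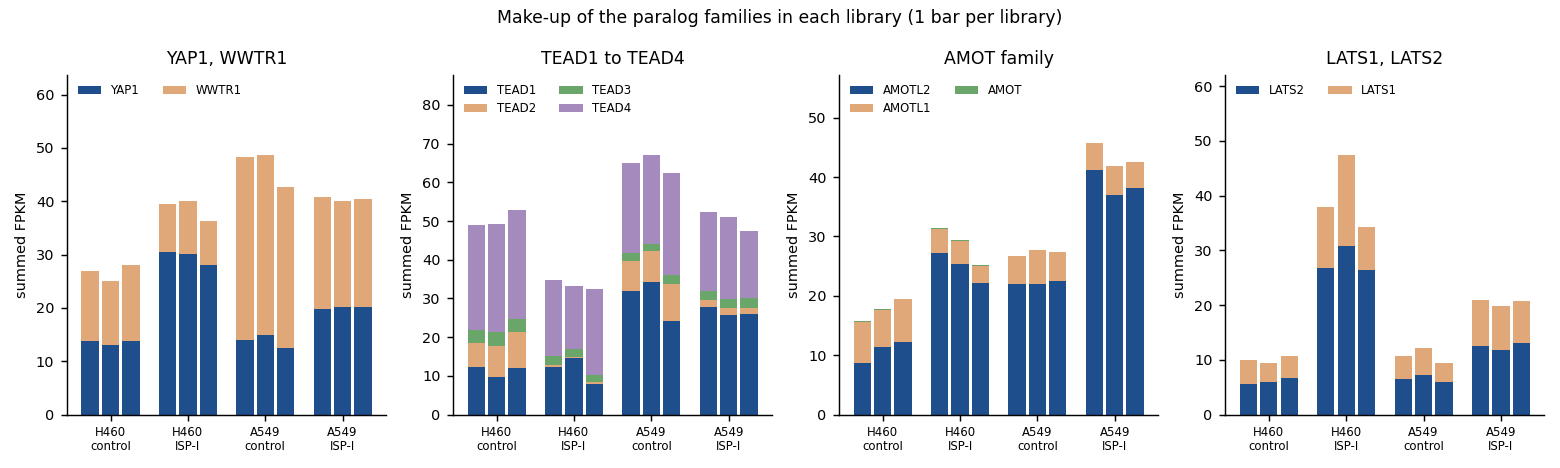
Summed FPKM of 4 families of paralogs, with 1 bar per library stacked by gene (linear axis from 0). YAP1 takes a larger part of the YAP1 and WWTR1 bars with ISP-I, TEAD2 shrinks to 1.20% of the TEAD sum in H460 and 3.51% in A549, and the AMOTL2 and LATS2 blocks grow.

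Of the secreted targets, CCN1 rose past 2-fold in each line, and CCN2 rose by more in H460 than in A549 (difference 0.64, adjusted p 0.000521). CCN1 was at 19.96, 23.6 and 22.1 FPKM in H460 controls and 54.1, 43.9 and 53.3 with ISP-I, and at 32.5, 32.4 and 37.4 in A549 controls and 74.6, 72.9 and 75.8 with ISP-I. No treated library overlapped the controls. The rise was 2.30-fold in H460 (log2 fold change 1.17, SE 0.13, adjusted p 6.83e-05; 1.31 relative to the median of all genes) and 2.18-fold in A549 (1.11, SE 0.07, adjusted p 1.02e-05). CCN2 was at 20.1, 20.7 and 20.497 FPKM in H460 controls and 43.3, 43.0 and 41.6 with ISP-I, among the narrowest groups of the set, and at 7.46, 7.07 and 7.97 in A549 controls and 9.97, 9.16 and 11.1 with ISP-I. Again the groups were separate in each line. The rise was 2.09-fold in H460 (1.03, SE 0.10, adjusted p 3.48e-05; 1.17 relative to the median) and 1.34-fold in A549 (0.38, SE 0.09, adjusted p 0.00616). Within the CCN1 and CCN2 pair, CCN2 held 48.3% of the summed FPKM in H460 controls and 45.9% with ISP-I, and 18.1% and 11.9% in A549.

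ANKRD1 had the largest change of the 10 genes in each line. It was at 0.349, 0.515 and 0.225 FPKM in H460 controls and 36.6, 35.6 and 33.1 with ISP-I, and at 6.87, 5.51 and 5.07 in A549 controls and 63.8, 65.0 and 68.5 with ISP-I. The gene was close to silent in untreated H460, with 6 to 14 reads per library against 879 to 1170 with ISP-I. The log2 fold change was 4.73 (SE 0.12, adjusted p 8.26e-08; 4.88 relative to the median of all genes) in H460 and 3.30 (SE 0.10, adjusted p 3.59e-07) in A549. The plain ratio of mean FPKM was 96.6 in H460 and 11.3 in A549. The ratio in H460 rests on the few control reads, and the log2 value there was 6.29 with a pseudocount of 0.1 and 6.88 with voom on the reads. In A549, where controls held 134 to 175 reads, the same alternatives gave 3.49 and 3.47.

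The feedback targets all rose in both lines. LATS2, a kinase of the Hippo pathway, was at 5.56, 5.86 and 6.61 FPKM in H460 controls and 26.8, 30.8 and 26.3 with ISP-I. In A549 LATS2 was at 6.47, 7.18 and 5.90 in controls and 12.5, 11.7 and 13.0 with ISP-I. It rose 4.65-fold in H460 (log2 fold change 2.05, SE 0.12, adjusted p 1.94e-06; 2.19 relative to the median) and 1.91-fold in A549 (0.84, SE 0.09, adjusted p 8.48e-05). The control groups of the 2 lines overlapped, whereas the lowest treated H460 library stood above the highest treated A549 library. Its paralog LATS1 was at 4.46, 3.47 and 4.14 FPKM in H460 controls and 11.0, 16.5 and 7.91 with ISP-I (1.30, adjusted p 0.000969), and at 3.49 to 4.91 and 7.72 to 8.38 in A549 (0.80, adjusted p 0.000351). LATS2 held 59.9% of the LATS1 and LATS2 sum in H460 controls and 70.9% with ISP-I (exact permutation p 0.1), and 60.8% and 60.6% in A549 (exact permutation p 0.8).

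AMOTL2 was at 8.74, 11.3 and 12.2 FPKM in H460 controls and 27.3, 25.3 and 22.1 with ISP-I, and at 22.02, 22 and 22.5 in A549 controls and 41.2, 36.9 and 38.2 with ISP-I. The treated H460 libraries overlapped the untreated A549 libraries. The rise was 2.32-fold in H460 (log2 fold change 1.15, SE 0.15, adjusted p 0.000154; 1.30 relative to the median) and 1.75-fold in A549 (0.78, SE 0.07, adjusted p 3.07e-05). Over AMOT, AMOTL1 and AMOTL2 together, AMOTL2 held 60.5% in H460 controls and 87.0% with ISP-I, and 81.2% and 89.3% in A549 (exact permutation p 0.1 in each). AMOTL1 fell in H460 (-0.75, adjusted p 0.000995), and AMOT stayed at or under 0.146 FPKM in every library. AJUBA was at 8.80, 10.4 and 9.85 FPKM in H460 controls and 19.8, 17.2 and 21.1 with ISP-I, and at 26.6, 25.2 and 29.5 in A549 controls and 50.2, 47.9 and 49.8 with ISP-I. Every treated library was above the controls of its line. AJUBA rose 1.999-fold in H460 (0.93, SE 0.12, adjusted p 0.000184; 1.08 relative to the median of all genes) and 1.82-fold in A549 (0.84, SE 0.07, adjusted p 3.79e-05). In H460 it was just short of a call, and was called under median-of-ratios scaling (1.20), with voom (1.28) and without H460 ISP-I library 2 (1.01).

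**Figure D4:**
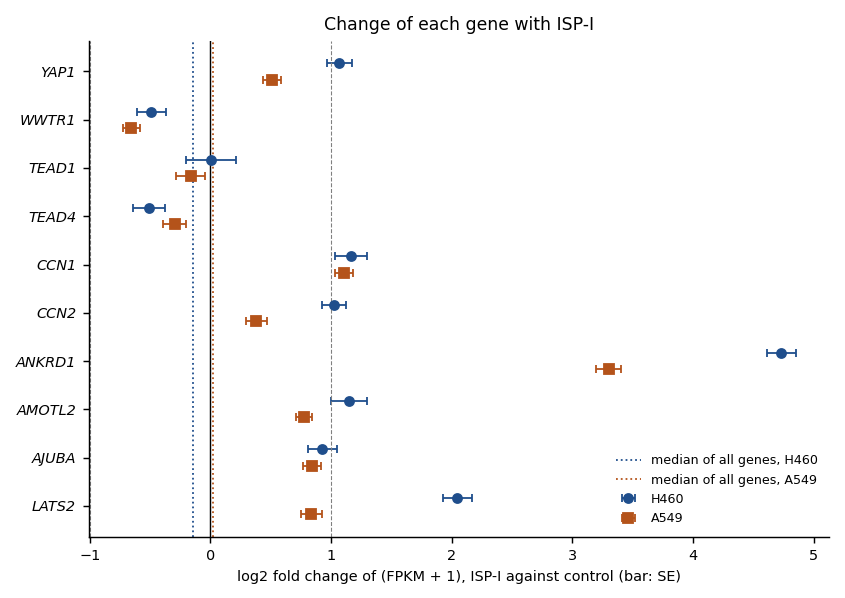
Log2 fold change of (FPKM + 1) with ISP-I for the 10 genes in H460 (circles) and A549 (squares), with bars for the SE; dotted lines mark the median of all genes in each line and the dashed line marks a fold change of 2. Points of H460 lie to the right of those of A549 by most for ANKRD1 (4.73 against 3.30) and LATS2 (2.05 against 0.84), and to the left for TEAD4. By the interaction test, the difference was higher in H460 at an adjusted p under 0.05 for 4 of the 10 genes, beside 18.6% of all genes.

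To test whether the lines responded differently, the ISP-I effect in H460 minus that in A549 was tested as an interaction over all 12 libraries. Of the 10 genes, 4 rose more in H460 on the log2 scale at an adjusted p under 0.05, and 0 rose less. Of the 4, 2 were called. Over all 13953 genes tested, 5.93% were called as higher in this difference and 10.1% as lower, and 18.6% and 34.7% passed the adjusted p alone. The difference was 1.43 for ANKRD1 (SE 0.15, adjusted p 1.04e-05) and 1.21 for LATS2 (SE 0.14, adjusted p 1.50e-05). For CCN2, at 0.64, its SE was 0.11, and it was 0.56 for YAP1 (SE 0.11, adjusted p 0.00120), both short of a call. CCN1 (0.06, adjusted p 0.750), AJUBA (0.08, adjusted p 0.618), WWTR1 (0.17, adjusted p 0.296), TEAD1 (0.17, adjusted p 0.607), AMOTL2 (0.37, adjusted p 0.0700) and TEAD4 (-0.21, adjusted p 0.282) did not pass. The median of this difference was 0.27 for the 10 genes and -0.16 for all genes, and median-of-ratios scaling moved the latter by 0.18. Under that scaling 7 of the 10 passed the adjusted p, with AMOTL2 at 0.67 (adjusted p 0.00520), WWTR1 at 0.45 (adjusted p 0.00895) and AJUBA at 0.39 (adjusted p 0.0475) added, beside 27.1% of all genes passing as higher and 23.6% as lower under it, and 2 were called, beside 9.30% and 5.91%.

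The untreated lines also differed. H460 and A549 controls were compared with each other. These are the same control libraries as in the treatment comparisons. Relative to A549, 1 of the 10 genes was called higher in H460 and 4 lower, and 1 was higher and 6 lower at any fold change. Over all 13532 genes tested, 5.64% were called higher and 8.78% lower, and 28.6% and 31.6% passed the adjusted p alone. CCN2 was the gene higher in H460, at 2.72 times the A549 mean (log2 difference 1.34, adjusted p 1.91e-06). ANKRD1 was lower, with the A549 mean at 16.02 times that of H460 (-2.32, adjusted p 9.71e-07), followed by AJUBA (-1.39, adjusted p 4.47e-06), TEAD1 (-1.33, adjusted p 5.85e-05) and WWTR1 (-1.27, adjusted p 7.23e-06). AMOTL2 (-0.99, adjusted p 0.000123) and CCN1 (-0.62, adjusted p 0.000712) were lower without a call. YAP1 (-0.02, adjusted p 0.889) and LATS2 (-0.10, adjusted p 0.432) overlapped between the lines, and TEAD4 (0.19, adjusted p 0.0817) did not overlap but did not pass.

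The order of levels within a group, in FPKM, changed with ISP-I. In H460 controls TEAD4 stood first at 27.7, followed by CCN1 (21.9) and CCN2 (20.4), whose libraries overlapped. YAP1 (13.6), WWTR1 (13.0), TEAD1 (11.3), AMOTL2 (10.7) and AJUBA (9.69) came next, each overlapping its neighbour, and then LATS2 (6.01) and ANKRD1 (0.363), each separate. With ISP-I in H460, CCN1 (50.4), CCN2 (42.6) and ANKRD1 (35.1) stood first and were separate from each other. YAP1 (29.6), LATS2 (28.0) and AMOTL2 (24.9) overlapped in turn, AJUBA (19.4) overlapped TEAD4 (19.3), and TEAD1 (11.6) overlapped WWTR1 (8.997). ANKRD1 had moved from the last place to the third, and TEAD4 from the first to the eighth. In A549 controls CCN1 (34.1), WWTR1 (32.7), TEAD1 (30.2), AJUBA (27.1) and TEAD4 (24.2) overlapped in turn, then AMOTL2 (22.2) and YAP1 (13.8) stood apart, and CCN2 (7.498), LATS2 (6.52) and ANKRD1 (5.82) overlapped at the end. With ISP-I in A549 CCN1 (74.4), ANKRD1 (65.8), AJUBA (49.3), AMOTL2 (38.8) and TEAD1 (26.5) were each separate from the next, WWTR1 (20.4), YAP1 (20.02) and TEAD4 (19.5) overlapped, and LATS2 (12.4) and CCN2 (10.1) were last. CCN1 was thus the highest of the 10 genes in 3 of the 4 groups, and CCN2 was second with ISP-I in H460 but last with ISP-I in A549.

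Further YAP/TAZ targets were taken from a 22-gene target list, of which 5 are members and 17 are not. Of these 17, H460 had 3 called higher and 0 lower, and A549 had 1 in each direction, beside shares over all genes of 10.5% and 15.2% in H460 and 4.20% and 3.51% in A549. Their median log2 fold change was 0.12 in H460 and 0.05 in A549, against 1.05 and 0.65 for the 10 genes above. Under median-of-ratios scaling their H460 median was 0.38, with 5 called higher. Over all genes, 14.6% were called higher and 11.2% lower in H460 under that scaling. GADD45A, a growth arrest gene also induced by p53, was at 10.7, 10.7 and 9.94 FPKM in H460 controls and 103, 92.2 and 169 with ISP-I (3.37, adjusted p 3.01e-06), and at 20.6 to 25.5 and 131 to 140 in A549 (2.54, adjusted p 5.08e-07). AXL, a receptor tyrosine kinase, rose in H460 from 8.37, 9.66 and 11.0 to 47.3, 43.0 and 42.2 FPKM (2.09, adjusted p 2.68e-06), and in A549 stood at 157 to 168 in controls and 144 to 155 with ISP-I (-0.10, adjusted p 0.222; difference between the lines 2.19, adjusted p 1.77e-07). NUAK2, a kinase of the AMPK family, rose from 5.41, 6.17 and 5.66 to 39.2, 39.0 and 38.3 FPKM in H460 (2.56, adjusted p 4.46e-07) and by 0.49 in A549 (adjusted p 0.00105). CCDC80 fell in A549 (-1.87, adjusted p 3.20e-06) and in H460 (-0.81, adjusted p 7.45e-05), and FJX1 rose in both (0.92, adjusted p 2.07e-05; 0.77, adjusted p 0.00171). PTPN14, a phosphatase that binds YAP, passed in neither line (-0.01, adjusted p 0.936; 0.15, adjusted p 0.105). The difference between the lines was called for 5 of the 17, all with the higher value in H460: AXL, NUAK2, CCDC80, IGFBP3 and NT5E (the last 2 named after their values were seen), beside 5.93% of all genes called that way. In untreated cells 9 of the 17 were called lower in H460 than in A549 and 0 higher, beside 8.78% and 5.64% of all genes.

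**Figure D5:**
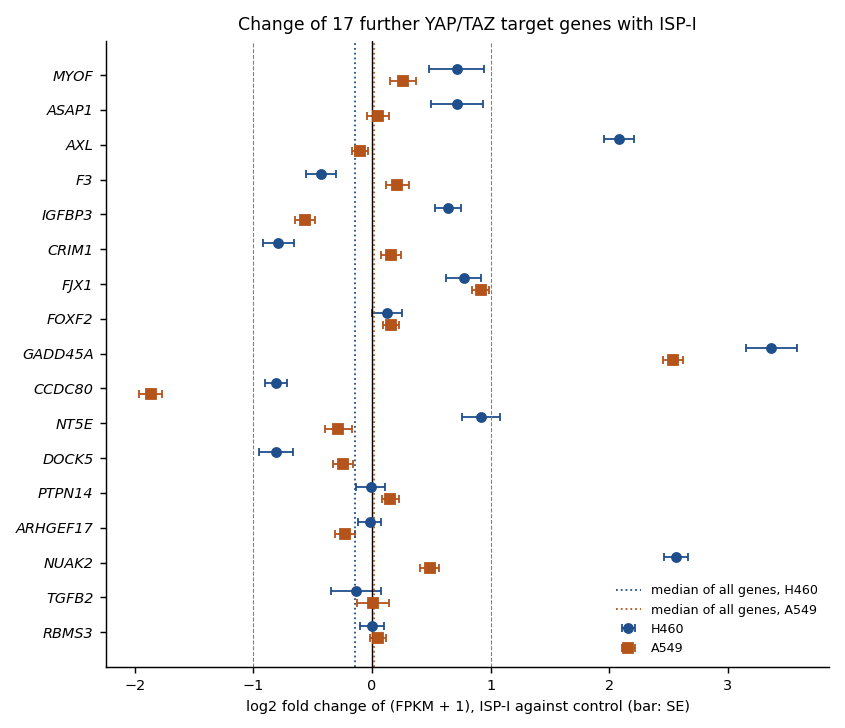
Log2 fold change of (FPKM + 1) with ISP-I for the 17 target genes that are not among the 10, in H460 (circles) and A549 (squares), with bars for the SE, dotted lines for the median of all genes and dashed lines for a fold change of 2. GADD45A rises past 2-fold in both lines, AXL and NUAK2 in H460, and CCDC80 falls past 2-fold in A549.

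The list of 24 Hippo kinase genes and activators, which holds LATS2 and its paralog LATS1, moved in both directions. Without LATS2, H460 had 3 of 22 tested called higher and 5 lower, and A549 had 2 of 23 higher and 1 lower, where 10.5% and 15.2% of all genes were called in H460 and 4.20% and 3.51% in A549. Those called higher in H460 were MAP4K5, LATS1 and STK38L, of which MAP4K5 and STK38L were named after their values were seen. The core kinase genes STK3 and STK4 rose in H460 by 0.44 each (adjusted p 0.0332 and 0.0220), where LATS2 rose by 2.05, and in A549 STK4 rose by 0.24 (adjusted p 0.0226) while STK3 was at -0.05 (adjusted p 0.786). NF2, the upstream scaffold merlin, fell in H460 (-0.98, adjusted p 8.55e-05), with -0.17 in A549 (adjusted p 0.0755). The kinase genes MAP4K2 (-1.25, adjusted p 6.07e-06) and MINK1 (-1.53, adjusted p 7.80e-06) and the scaffold gene WWC1 (-1.35, adjusted p 1.33e-05) fell in H460. In A549 MAP4K2 (-1.18, adjusted p 1.17e-05) and MINK1 (-0.56, adjusted p 0.000130) fell too, and WWC1 was at 0.18 (adjusted p 0.0385, and 0.0989 under median-of-ratios scaling). FRMD6 rose in A549 (2.09, adjusted p 1.79e-06) and in H460 (0.67, adjusted p 0.00356), and so did TNIK (0.89, adjusted p 1.72e-05; 0.94, adjusted p 0.000175). Of the 16 STRIPAK genes, whose phosphatase complex opposes the Hippo kinases, 1 was called higher and 1 lower in H460 (CTTNBP2NL, 1.49, adjusted p 6.97e-05; STK25, -1.81, adjusted p 6.95e-06), and 1 higher in A549 (STRIP2, 1.38, adjusted p 4.45e-06; 0.42 in H460, adjusted p 0.00836), beside the same shares of all genes. PPP2CA, the phosphatase catalytic subunit, rose in both lines (0.92, adjusted p 0.000188; 0.39, adjusted p 0.000829), and its scaffold PPP2R1A fell (-0.72, adjusted p 0.000957; -0.49, adjusted p 0.000955).

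Beside TEAD1, TEAD4, AMOTL2 and AJUBA, the list of YAP/TAZ binding partners and inhibitors held 12 other genes. Of these, 1 of 8 tested was called higher and 1 lower in H460, and 0 of 9 higher and 1 lower in A549, the lower one being TEAD2 in each, beside 10.5% and 15.2% of all genes in H460 and 4.20% and 3.51% in A549. ZYX, a LIM protein of focal adhesions, rose in both lines as AJUBA did (1.38, adjusted p 0.000110; 0.46, adjusted p 0.00224). The AJUBA relative LIMD1 fell in both (-0.97, adjusted p 3.87e-05; -0.35, adjusted p 0.00615). VGLL4, which competes with YAP for TEADs, rose in H460 (0.36, adjusted p 0.0193), with 0.12 in A549 (adjusted p 0.209). VGLL3 was at or under 0.0843 FPKM in H460 and at 1.62 to 2.63 in A549 (0.01, adjusted p 0.939).

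CCN1, CCN2 and ANKRD1 are also known targets of SRF and its MRTF cofactors, so a list of 30 genes was set beside them. The list holds SRF, MRTFA, MRTFB, SRFBP1, SRF targets and actin genes. Of its 27 genes that are not members, H460 had 7 called higher and 4 lower, while A549 had 3 and 2. Over all genes the shares were 10.5% and 15.2% in H460 and 4.20% and 3.51% in A549. The median log2 fold change of the 27 was -0.11 in H460, against -0.15 for all genes, and -0.26 in A549, against 0.02. SRFBP1, named after its values were seen, was among those called higher in each line (2.33, adjusted p 3.54e-05; 1.24, adjusted p 0.000286). The early growth genes EGR1 and FOS rose in H460 from 1.99 to 2.50 and 1.20 to 1.96 FPKM in controls to 662 to 825 and 85.1 to 120 with ISP-I (7.87, adjusted p 3.51e-08; 5.31, adjusted p 2.23e-07), and in A549 by 4.82 (adjusted p 1.09e-07) and 1.58 (adjusted p 1.10e-05). CNN2, a calponin, fell in both lines (-2.76, adjusted p 1.61e-06; -1.81, adjusted p 2.94e-06). ACTB, named after its values were seen, fell as well (-2.87, adjusted p 1.79e-06; -1.16, adjusted p 5.30e-05). SRF itself was at 0.08 in H460 (adjusted p 0.624) and fell by 0.26 in A549 (adjusted p 0.0270).

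For CCN1, CCN2 and ANKRD1, the genes with the nearest pattern were sought by the root mean square difference of log2(FPKM + 1), each gene centred on its mean, over the 12 libraries and among the 10592 genes whose mean reached 1 FPKM. The nearest to CCN1 were CREB3 (0.128), ATF5 (0.130) and UBAP1 (0.133). The nearest to CCN2 were SLC38A7 (0.0985), PPP1R3C (0.121) and TRAF3IP2 (0.127). SLC38A7, for example, had group means of 12.9 and 28.6 FPKM in H460 and 5.06 and 5.77 in A549, control first. The nearest to ANKRD1 were RRAD (0.576), TRAF1 (0.603) and ADM (0.675). The measure is not scaled by the size of a gene's change, so these values cannot be compared with those for CCN1 and CCN2. RRAD was at 0.0843 FPKM in H460 controls and 24.2 with ISP-I, and at 8.05 and 34.6 in A549. These distances describe 12 libraries that share 4 groups and are given without a test.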

How the data were processed

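Per the labels and the study's methods, the authors used FastQC for read quality, HISAT2 for mapping to hg38 and HTSeq 0.9.1 for counting on genes, and deposited FPKM. Annotation version and strand setting are not given in the sources used here. A further column deposited by the authors, gene length in bases, holds another unit and was used to recover reads: 100% of values were whole within 0.1 read. Since FPKM are not counts, log2(FPKM + 1) was tested with limma 3.58.1 in R 4.3.3 (mean-variance trend, Benjamini-Hochberg), in each line, as an interaction of line and treatment over 12 libraries, and between controls. The pseudocount draws changes of genes near 1 FPKM toward 0. Libraries held 14225849 to 17874422 reads; 4 table lines naming no gene were left out, and 1924 genes had no reads. The columns give line and treatment, so libraries are numbered by place within a group. The scripts were tested on simulated data.

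The members and lists were chosen with earlier results of these data known. Named from each list were the 3 genes that are no member with the smallest p in each line, and TEAD2, TEAD3, LATS1, STK3, STK4, NF2, VGLL3, VGLL4, AMOT, AMOTL1, PTPN14, AXL and SRF. Alternatives were 0.1 as the pseudocount, no filter or a filter at 1 FPKM, median-of-ratios scaling, quantile normalization, voom on recovered reads (at least 10 reads in 3 libraries), a joint fit, an adjusted p under 0.01, and leaving out each library. Python 3.11.15 with numpy 2.4.6 and pandas 2.3.3 handled the tables.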

Additional observations from a re-analysis of the deposited data

Results flagged for a closer look

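The ISP-I effect on ANKRD1 and LATS2 differed between the lines by a test of the difference itself (interaction in limma, H460 minus A549, on log2(FPKM + 1)). For ANKRD1 the difference was 1.43, with 4.73 in H460 and 3.30 in A549. It was 1.27 with quantile normalization, 1.72 under median-of-ratios scaling, 2.81 with a pseudocount of 0.1 and 3.41 with voom on the reads. H460 controls held 6 to 14 reads of the gene per library. The ANKRD1 mean with ISP-I was lower in H460 (35.1 FPKM) than in A549 (65.8 FPKM). For LATS2 the difference was 1.21, with 2.05 in H460 and 0.84 in A549, and it was 1.20 with quantile normalization, 1.51 under median-of-ratios scaling and 1.60 with voom. Treated LATS2 libraries of H460 (26.3 to 30.8 FPKM) and of A549 (11.7 to 13.0 FPKM) did not overlap, while the controls did.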

How the results depend on the processing

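The 40 values for the members, 10 genes in 4 comparisons, were each recomputed under the alternatives, 610 values in all. Of these, 591 kept their direction and their side of the call (fold change over 2 and adjusted p under 0.05). A further 7 came to be called and 12 changed sign. The filters, the joint fit and the adjusted p under 0.01 leave a member's log2 fold change as it was. Under these settings the direction could not change, so the 591 include values that were fixed in advance. By the adjusted p alone, 17 of the 610 crossed 0.05: 6 lost it, all of WWTR1 or TEAD4, and 11 gained it, 9 of them in the difference between the lines. The changes of sign concerned values near 0. TEAD1 in H460 ranged from -0.17 to 0.24 over the fits without 1 library, and its difference between the lines from -0.0074 to 0.40. The difference for CCN1 ranged from -0.0083 to 0.15 over such fits (-0.0032 without H460 control library 1), and for TEAD4 it was 0.086 under median-of-ratios scaling and 0.089 with voom. YAP1 between the untreated lines was 0.030 under median-of-ratios scaling, 0.033 with voom, and -0.080 to 0.037 over the fits without 1 library (0.0088 without H460 control library 2). The 7 values that came to be called were those of AJUBA in H460 and of AMOTL2 between the untreated lines (-1.05 with a pseudocount of 0.1, -1.01 with voom, and -1.03 and -1.08 without H460 control library 2 or 3). Numbers of called genes moved more. From 1409 higher and 2047 lower in H460, a pseudocount of 0.1 gave 2322 and 3464, voom gave 3056 and 2769, and median-of-ratios scaling gave 1954 and 1504. From 575 and 481 in A549, a pseudocount of 0.1 gave 1336 and 1062 and voom gave 1316 and 1277. For the difference between the lines, from 827 and 1407, a pseudocount of 0.1 gave 1451 and 2788, median-of-ratios scaling 1298 and 825, voom 2114 and 1909, and quantile normalization 1049 and 922. Between untreated lines, from 763 and 1188, a pseudocount of 0.1 gave 1363 and 2251 and voom 1536 and 2244. The cause was not tested. No paired analysis was possible because the numbers in the column names run over both treatments of a line and are not the labels' replicate numbers. ANKRD1 in H460 controls, at 6 to 14 reads, is the member whose depth limits its fold change.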
